A study of Mus musculus with 9 samples.

Results

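Endothelial cells line blood vessels and hold together through junctions that also set how much leaves the blood. Adherens junctions are built on VE-cadherin, tight junctions on claudins and JAM family proteins tied to the cytoskeleton by ZO-1, and the Tie receptors, activated by angiopoietins, keep this contact quiet. The 10 genes described here, Cdh5, Pecam1, Esam, Cldn5, Jam2, Tjp1, Tek, Tie1, Ptprb and Emcn, cover these parts and were chosen by symbol. All 10 were among the 11802 listed genes, and all 10 passed the minimum mean of 1 CPM (counts per 1e+06 counts of the library).

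The series compared ribosome-bound RNA from white adipose tissue of mice with and without endothelial Mfn2, a gene for mitochondrial fusion. The 5 KO libraries came from Pdgfb-iCreERT2:Mfn2ideltaEC:Rpl22HA mice and the 4 WT libraries from Pdgfb-iCreERT2:Rpl22HA mice. Both groups therefore carried the inducible Cre, driven by Pdgfb, an endothelial promoter, and the HA-tagged ribosomal protein Rpl22 used for the pull-down. The labels give no age, sex, induction schedule or fat depot, and they name no animals, so p-values measure only the spread between these libraries. Pull-down from whole tissue does not tell fewer endothelial cells apart from less RNA per cell.

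Libraries held 1615968 to 3829356 reads in KO and 1034753 to 2501048 in WT. Mfn2 was at 66.7 ± 37.0 CPM in KO (SD, n = 5) and 36.1 ± 15.0 CPM in WT (SD, n = 4), a difference of 0.81 in log2 (SE 0.446, adjusted p of 0.131 from limma), so its level did not separate the labels and the directions below rest on them. The 2 mitochondrial ribosomal RNAs took 12.8% to 25.2% of reads in KO and 13.9% to 64.8% in WT. In CPM, 94.6% of all genes were higher in KO by log2 fold change, with a median of 1.10. When CPM was recomputed without these 2 RNAs (mt-Rnr1 and mt-Rnr2), the median over the remaining genes was still 0.58. The source of that remaining shift was not tested. Each result is therefore also given relative to the library median, where each library's median log2(CPM + 1) was subtracted and the median over all genes was 0.12. On that scale Mfn2 differed by −0.16 (SE 0.365, adjusted p of 0.898 from limma).

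The regions before the RefSeq transcription starts of the Tie receptor pair and of Cldn5, the member with the highest level per exon length, are printed because the 3 genes are set side by side below. Capitals mark GGAA on either strand (TTCC on the printed strand), the core that ETS factors, known regulators of endothelial genes, recognise. Each is 250 bases from RefSeq (GRCm38.p6), printed 5′ to 3′ on the gene's strand: Tie1 at chr4:118489850-118490099 (minus strand), Tek at chr4:94739039-94739288 (plus strand) and Cldn5 at chr16:18776597-18776846 (plus strand). The Tek and Cldn5 windows end right before the gene starts of GENCODE M21, whose coordinates are given for the genes below, but the GENCODE start of Tie1 lies farther upstream, so that 212 of the 250 bases of its window fall inside the GENCODE gene.
Tie1: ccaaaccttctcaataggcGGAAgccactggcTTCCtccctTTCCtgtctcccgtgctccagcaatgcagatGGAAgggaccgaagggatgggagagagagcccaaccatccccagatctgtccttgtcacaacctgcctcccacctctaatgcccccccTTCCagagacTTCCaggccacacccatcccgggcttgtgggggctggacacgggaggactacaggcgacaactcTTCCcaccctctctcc
Tek: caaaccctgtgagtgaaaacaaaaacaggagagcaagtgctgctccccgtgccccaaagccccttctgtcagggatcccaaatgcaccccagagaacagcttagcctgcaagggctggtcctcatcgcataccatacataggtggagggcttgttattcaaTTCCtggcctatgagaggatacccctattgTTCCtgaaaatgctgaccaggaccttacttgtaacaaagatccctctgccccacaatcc
Cldn5: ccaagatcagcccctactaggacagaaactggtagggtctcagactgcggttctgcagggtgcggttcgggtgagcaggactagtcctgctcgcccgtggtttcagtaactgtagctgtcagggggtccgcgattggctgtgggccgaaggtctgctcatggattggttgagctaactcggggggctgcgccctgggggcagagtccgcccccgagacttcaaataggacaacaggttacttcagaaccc

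The Tie1 window, most of it within the GENCODE gene, held 7 GGAA sites, a number reached by 3.82% of the 32851 RefSeq windows of this length. Tek held 2 and Cldn5 none, against a median of 3 over all promoters, of which 93.4% held at least 1. Among the other members with a promoter in the table, Emcn held 4 and Tjp1 held 3 (11 and all 250 of their bases inside the GENCODE gene). Of 2 longer motifs searched on both strands, CAGGAAG, which overlaps GGAA, was in Emcn alone (10.8% of all promoters), and GTAAACA, a forkhead motif, was in none of the 5 (3.17% of all promoters). These matches describe letters in the window and not sites of binding.

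The members differed widely in level. Per kilobase of exon, which allows genes to be compared, Cldn5, the claudin that seals endothelial tight junctions, was highest at 266 ± 78.0 CPM per kb in KO (SD, n = 5) and 123 ± 73.1 in WT (SD, n = 4). Esam (107 ± 27.3 in KO and 47.6 ± 27.0 in WT) and Cdh5 (105 ± 41.3 in KO and 42.7 ± 20.3 in WT) came next. Their order held in 3 of 5 KO and 3 of 4 WT libraries, so the 2 were not told apart. Below Cdh5 the order by mean was Tie1, Pecam1, Tjp1, Tek, Ptprb, Jam2 and Emcn in both groups. Every neighbouring pair from Cdh5 down kept its order in all 5 KO libraries, although their ranges over libraries overlapped. In WT the pair Cdh5 and Tie1 kept it in 2 of 4 libraries, and Pecam1 and Tjp1 in 3 of 4. Emcn, the sialomucin endomucin, was lowest at 5.44 ± 3.16 CPM per kb in KO and 1.46 ± 0.807 in WT.

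**Figure D1:**
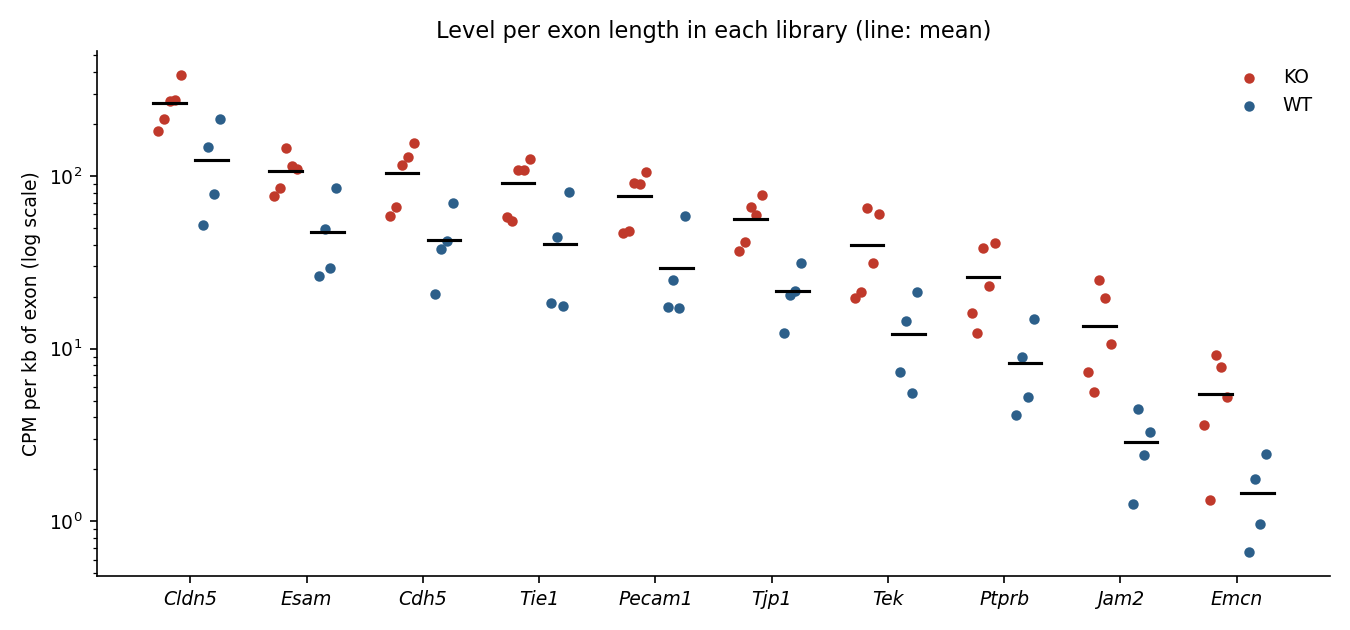
Level of each member in CPM per kb of exon (log axis), with 1 point per library, KO left of WT and a line at the group mean. Cldn5 lies highest and Emcn lowest in both groups, with means of 266 and 5.44 CPM per kb in KO against 123 and 1.46 in WT.

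All 10 members were higher in KO in the deposited CPM, and none was called relative to the library median. In CPM, 10 of 10 were called higher by limma (Benjamini-Hochberg adjusted p from 0.00569 for Jam2 to 0.0269 for Emcn), where 32.0% of all genes were called higher and 0.203% lower. Their log2 fold changes ran from 1.27 for Cldn5 to 2.09 for Jam2 with a median of 1.44, against 1.10 over all genes. Of 22 other endothelial genes, set out below, 17 (77.3%) were called higher in CPM, with a median of 1.52. Relative to the library median, 0 of 10 were called in either direction (limma adjusted p from 0.283 to 0.739), where 0.0339% of all genes were called higher and 0.0763% lower. All 10 relative fold changes were above 0, where 57.9% of all genes were, with a median of 0.47 against 0.12 over all genes. An unadjusted limma p under 0.05 was reached by 2 of them, Jam2 and Ptprb, and by 11.7% of all genes. EdgeR and DESeq2, run on the whole reads behind the CPM with their own scaling, called 0 of 10, with medians of 0.36 and 0.37. The share of all genes called higher was 0.00847% in edgeR and 0.357% in DESeq2, and the share called lower 0.0339% in edgeR and 1.38% in DESeq2. Without WT replicate 1 the CPM count was 3 (9.27% of all genes), without WT replicate 3 it was 5 (15.2%) and without KO replicate 3 it was 6 (14.3%).

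The members' position depended on the library within each group. In KO, replicates 3, 4 and 5 each lay above the highest WT library for all 10 members in CPM. KO replicate 2 did so for 5 and KO replicate 1 for 4. For KO replicate 2, Tek (100.82 against 100.73 CPM) and Cldn5 (304.37 against 304.09 CPM) barely passed WT replicate 4. Relative to the library median the counts were 9 each for KO replicates 3, 4 and 5 and 1 each for KO replicates 1 and 2. These counts were not taken over all genes, whose median was 16.72 to 23.92 CPM in KO libraries and 6.3 to 16.15 CPM in WT libraries. No member was without overlap between groups in relative values, where 2.07% of all genes had every KO library above every WT library and 1.74% had it below. KO replicate 1 lay below the WT median in relative values for 7 of the 10 members. Among WT libraries, replicate 4, which also had the lowest mitochondrial rRNA share of its group, held the highest CPM for 9 of the 10. Together the members took 0.475% ± 0.129 of reads from nuclear protein-coding genes in KO (SD, n = 5) and 0.307% ± 0.0696 in WT (SD, n = 4). The highest share was 0.598% in KO replicate 3 (95% Wilson interval 0.587 to 0.610, counting error only), against 0.389% in WT replicate 4 (0.373 to 0.405).

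**Figure D2:**
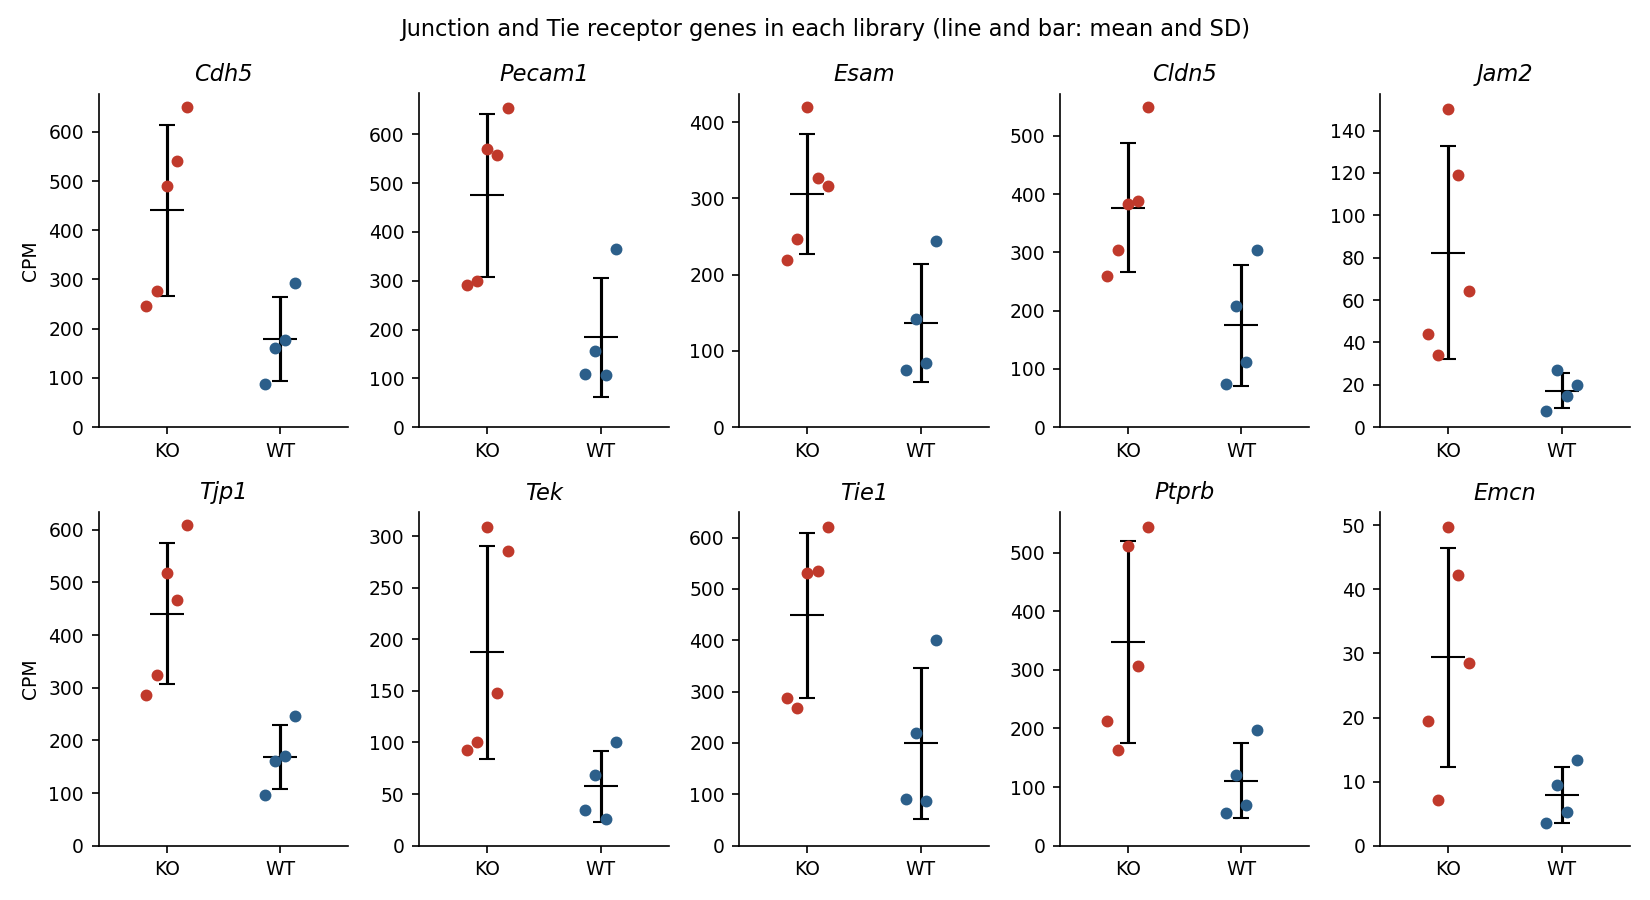
CPM of each member, with 1 point per library, KO left of WT, and a line and bar for mean and SD (axes start at 0 and differ between panels). For Jam2 and Tjp1 all 5 KO libraries lie above all 4 WT libraries, while the other 8 panels overlap. Over all genes, 18.7% show no overlap in this direction.

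Adherens junction and contact molecules came first. Cdh5 encodes VE-cadherin, the adhesion molecule of endothelial adherens junctions (ENSMUSG00000031871; GRCm38 chromosome 8, 104101625 to 104144511, plus strand). It was at 247, 277, 490, 541 and 650 CPM in KO replicates 1 to 5, against 87.3, 160, 176 and 294 CPM in WT replicates 1 to 4. KO replicates 1 and 2 lay below WT replicate 4, and the other KO libraries above it. Cdh5 thus differed by 1.32 in log2 CPM (SE 0.414, adjusted p of 0.0196 from limma) and by 0.34 relative to the library median, with a 95% interval from −0.25 to 0.94.

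Pecam1, the homophilic adhesion molecule CD31 that platelets and leukocytes also carry (chromosome 11, 106654217 to 106750628, minus strand), was at 291, 300, 570, 558 and 654 CPM in KO replicates 1 to 5. In WT replicates 1 to 4 it was at 109, 156, 107 and 364 CPM, so WT replicate 4 lay among the KO values. The difference was 1.48 in log2 CPM (SE 0.417, adjusted p of 0.0125 from limma) and 0.50 in relative values (95% interval −0.11 to 1.11).

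Esam encodes an immunoglobulin-like adhesion molecule of endothelial tight junctions (chromosome 9, 37528078 to 37538319, plus strand). It ranged from 219 to 419 CPM in KO and from 75.6 to 244 CPM in WT. Its log2 CPM was 1.28 higher in KO (SE 0.404, adjusted p of 0.0200 from limma), and its relative value 0.31 higher, with 2 of 5 KO libraries above the highest WT library in relative values.

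Among tight junction genes the largest fold change of the set belonged to Jam2. It encodes JAM-B, a junctional adhesion molecule that binds JAM-C (chromosome 16, 84774123 to 84825928, plus strand). It was at 44.0, 33.9, 150, 119 and 64.3 CPM in KO replicates 1 to 5, against 7.65, 26.9, 14.7 and 20.0 CPM in WT replicates 1 to 4. The groups did not overlap in CPM, which held for 18.7% of all genes in this direction and 0.0254% in the other. In log2 CPM the difference was 2.09 (SE 0.478, adjusted p of 0.00569 from limma), larger than that of 95.1% of all genes. The relative difference was 1.11 (SE 0.400), with a 95% interval from 0.28 to 1.95, an unadjusted p of 0.0113 and an adjusted p of 0.283 from limma. The WT values rest on 17 to 68 reads, and in relative values WT replicate 2 lay above KO replicates 1 and 2.

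Cldn5 (ENSMUSG00000041378; chromosome 16, 18776847 to 18778262, plus strand, 1 exon) gave the smallest fold change of the 10. It was at 259, 304, 383, 389 and 549 CPM in KO replicates 1 to 5, against 73.4, 208, 112 and 304 CPM in WT replicates 1 to 4. KO replicate 1 lay below WT replicate 4, and KO replicate 2 lay just above it. Between groups log2 CPM differed by 1.27 (SE 0.415, adjusted p of 0.0231 from limma), and by 0.29 in relative values (95% interval −0.30 to 0.88).

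Tjp1 encodes ZO-1, the scaffold that ties claudins and JAMs to actin, and is expressed well beyond endothelium (chromosome 7, 65296165 to 65527781, minus strand). It was at 287, 323, 518, 466 and 608 CPM in KO replicates 1 to 5, against 96.3, 160, 170 and 246 CPM in WT replicates 1 to 4. As the second member with no overlap between groups in CPM, it brought the count to 2 of 10, near the 18.7% of all genes. Its relative values were the tightest of the set in WT, at 3.86 ± 0.122 (log2, SD, n = 4), against 4.29 ± 0.341 in KO (SD, n = 5). In log2 CPM Tjp1 was 1.40 higher in KO (SE 0.399, adjusted p of 0.0129 from limma), and 0.43 higher in relative values (95% interval −0.12 to 0.97).

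The Tie receptor genes lay on either side of the set's median fold change. Tek encodes TIE2, the receptor that binds angiopoietins (ENSMUSG00000006386; chromosome 4, 94739289 to 94874976, plus strand). It was at 92.9, 101, 309, 148 and 286 CPM in KO replicates 1 to 5, against 34.7, 68.1, 26.3 and 101 CPM in WT replicates 1 to 4. KO replicates 3 and 5 stood well above the rest, and KO replicate 2 lay within 1 CPM of WT replicate 4. Tek differed by 1.70 in log2 CPM (SE 0.441, adjusted p of 0.00896 from limma) and by 0.72 in relative values (95% interval −0.02 to 1.47).

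Tie1 encodes the partner receptor that modulates TIE2 and has no well-established ligand of its own among the angiopoietins (ENSMUSG00000033191; chromosome 4, 118471191 to 118490061, minus strand). It was at 287, 269, 531, 535 and 621 CPM in KO replicates 1 to 5, against 90.5, 219, 86.7 and 400 CPM in WT replicates 1 to 4. WT replicate 4 lay above KO replicates 1 and 2. Tie1 differed by 1.38 in log2 CPM (SE 0.432, adjusted p of 0.0195 from limma) and by 0.40 in relative values (95% interval −0.26 to 1.07).

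Ptprb encodes VE-PTP, the phosphatase that dephosphorylates TIE2 and associates with VE-cadherin (chromosome 10, 116275523 to 116389535, plus strand). It was at 213, 163, 510, 307 and 544 CPM in KO replicates 1 to 5, against 55.4, 120, 69.9 and 198 CPM in WT replicates 1 to 4. Only KO replicate 2 lay below WT replicate 4. Ptprb differed by 1.66 in log2 CPM (SE 0.427, adjusted p of 0.00860 from limma). Its relative difference was 0.69 (SE 0.315), with a 95% interval from 0.03 to 1.34, an unadjusted p of 0.0411 and an adjusted p of 0.405 from limma.

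Emcn, a sialomucin of capillary and venous endothelium that counters leukocyte adhesion (chromosome 3, 137341067 to 137432185, plus strand), was the least abundant member. It was at 19.4, 7.17, 49.8, 42.2 and 28.6 CPM in KO replicates 1 to 5, against 3.60, 9.49, 5.25 and 13.3 CPM in WT replicates 1 to 4. KO replicate 2 fell among the WT values. The WT values rest on 8 to 24 reads, and the 8 reads of WT replicate 1 allow 1.55 to 7.09 CPM (exact Poisson 95% interval, counting error only). Emcn differed by 1.65 in log2 CPM (SE 0.564, adjusted p of 0.0269 from limma) and by 0.68 in relative values (95% interval −0.31 to 1.67).

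The members were also set against other endothelial genes. A list of 22 further endothelial genes, among them Kdr, Flt1, Erg and Cd93, all measured, summed to 3449 to 8280 CPM in KO and 1173 to 3640 CPM in WT. Its mean relative log2 value ran from 2.07 to 2.95 in KO and from 1.89 to 2.34 in WT, with replicates 3, 4 and 5 again the highest KO libraries. When each library was centred on the mean of these 22 genes, the members' median log2 fold change was −0.0025, with 5 of 10 above 0, against −0.35 over all genes. The values ran from −0.18 for Cldn5 to 0.65 for Jam2, and limma called 0 of 10 (adjusted p from 0.499 to 0.972), as it called 0.0% of all genes in either direction, with 1582 genes at an unadjusted p under 0.05. The median spread of a member between libraries was 0.27 in KO and 0.27 in WT on this scale (SD of log2 values). Over all genes, 0.364% had every KO library above every WT library on this scale and 3.84% had it below. In CPM the spread was 0.59 in KO and 0.79 in WT. By gene, Cdh5, Cldn5, Esam, Tjp1 and Tie1 lay below 0 on this scale and Pecam1, Jam2, Tek, Ptprb and Emcn above it.

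**Figure D3:**
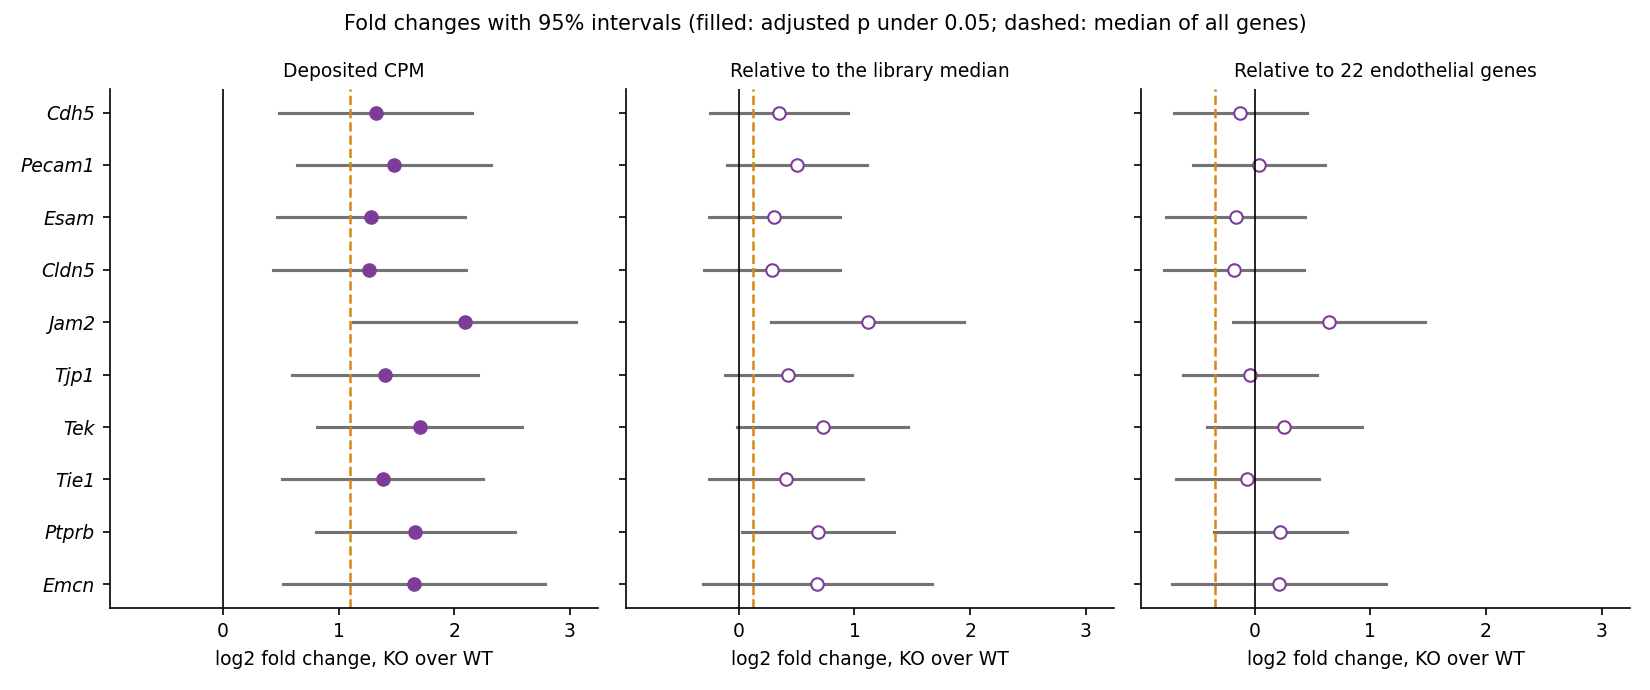
Log2 fold change of each member, KO over WT, with 95% intervals in the deposited CPM, relative to the library median, and relative to 22 endothelial genes (filled points, adjusted p under 0.05; dashed line, median of all genes). All 10 points are filled in CPM and none is in the other panels, and Jam2 lies farthest right in each.

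Ratios of a gene pair within a library depend on its scaling only through the pseudocount of 1. The 4 ratios tested were Ptprb to Tek (phosphatase to receptor), Tie1 to Tek, Cldn5 to Cdh5 and Tjp1 to Cdh5, and none passed the threshold in a two-sided exact permutation test (126 splits, smallest possible p 0.00794), with each adjusted p at 0.833 over the 4. Tie1 CPM was 3.08, 2.67, 1.72, 3.63 and 2.17 times Tek CPM in KO replicates 1 to 5, against 2.61, 3.21, 3.30 and 3.97 times in WT replicates 1 to 4 (not corrected for length). The mean log2 ratio was 1.35 ± 0.420 in KO (SD, n = 5) and 1.67 ± 0.253 in WT (SD, n = 4), a difference of −0.32 (exact permutation p = 0.230). Ptprb to Tek was at 0.92 ± 0.214 in KO and 0.95 ± 0.310 in WT, a difference of −0.037 (exact permutation p = 0.833) whose sign turned with a pseudocount of 5.

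The tight to adherens junction ratios were near 0 in both groups. Cldn5 to Cdh5 was at −0.17 ± 0.266 in KO (SD, n = 5) and −0.12 ± 0.440 in WT (SD, n = 4), a difference of −0.055 (exact permutation p = 0.802). Tjp1 to Cdh5 was at 0.042 ± 0.193 in KO and −0.042 ± 0.164 in WT, a difference of 0.083 (exact permutation p = 0.50). The spread of Cldn5 to Cdh5 in WT, from −0.65 to 0.38, covered all KO values.

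**Figure D4:**
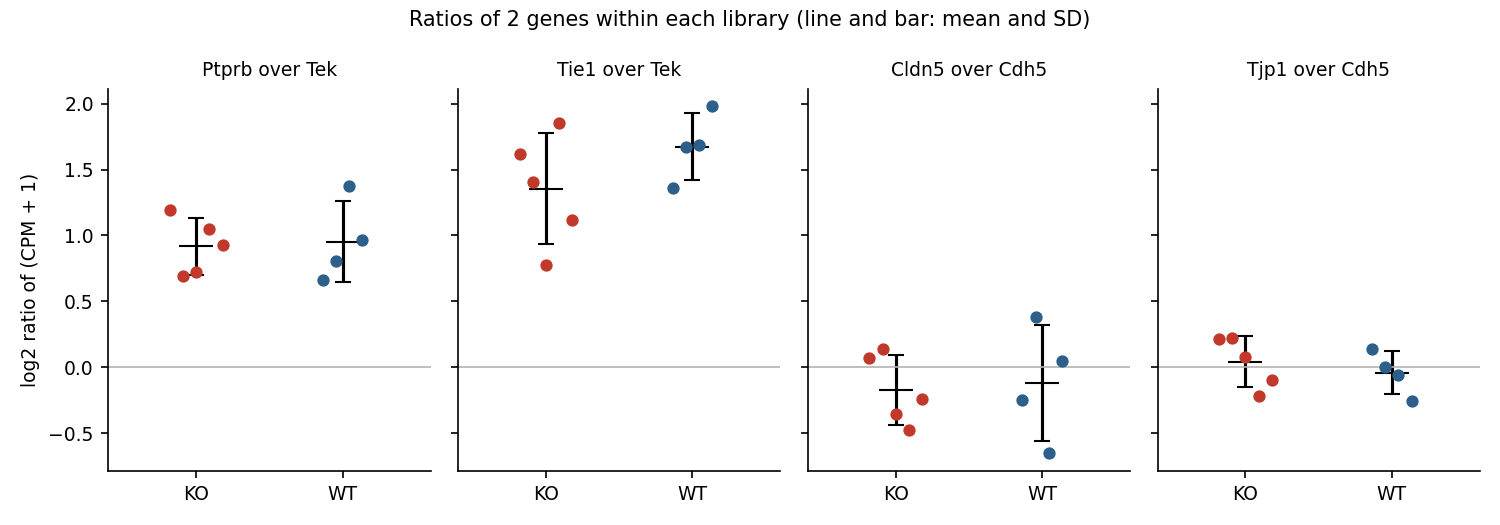
Log2 ratio of (CPM + 1) of 4 gene pairs within each library, KO left of WT, with 1 point per library and a line and bar for mean and SD. The groups overlap in all 4 panels, and Tie1 over Tek shows the widest gap of means, 1.35 in KO against 1.67 in WT.

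Partners of the members in the same junctions were measured with them. Of 88 genes in 7 pathway lists, 76 were measured, of which 40 (52.6%) were called higher in CPM, where 32.0% of all genes were, and 0 lower. Relative to the library median 0 were called in either direction, and 10 had an unadjusted p under 0.05 (8 higher, 2 lower), where 11.7% of all genes did. EdgeR and DESeq2 also called 0 of them. The CPM count was 14 without WT replicate 1 (9.27% of all genes), 16 without KO replicate 3 (14.3%), 16 without WT replicate 3 (15.2%), 18 without KO replicate 5 (15.5%) and 26 without KO replicate 4 (17.7%). Among cadherin and catenin partners 5 of 10 were called higher in CPM, with a relative median of 0.10 against 0.12 over all genes. The count was 2 without KO replicate 3, WT replicate 1 or WT replicate 3, and 3 without KO replicate 4. They included Ctnna1, alpha-catenin, at 348 ± 120 CPM in KO (SD, n = 5) and 112 ± 57.3 CPM in WT (SD, n = 4), with a CPM log2 fold change of 1.67 and a relative one of 0.70. Beta-catenin (Ctnnb1) and T-cadherin (Cdh13) had CPM fold changes of 1.44 and 1.64. Ctnnd1, p120-catenin, which holds VE-cadherin at the surface, was at 24.7 CPM in KO and 23.0 CPM in WT, named after its values were seen (CPM log2 fold change 0.07, limma adjusted p = 0.913, and relative −0.91 with an adjusted p of 0.412).

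Of 10 measured tight junction partners, 4 were called higher in CPM, where 32.0% of all genes were, with a relative median of 0.30. The count was 1 without WT replicate 3, 2 without KO replicate 5 or WT replicate 1, and 7 without WT replicate 4 (50.1% of all genes). They included the multi-PDZ scaffold gene Mpdz, the scaffold gene Magi1 and F11r, which encodes JAM-A. Mpdz was at 71.0 ± 15.1 CPM in KO and 23.9 ± 10.3 CPM in WT, a CPM log2 fold change of 1.63 (limma adjusted p = 0.0108). Jam3, which encodes the JAM-C partner of JAM-B, was at a mean of 4.39 CPM in KO and 1.43 CPM in WT and was not called (adjusted p of 0.0909 from limma, named after its values were seen, with 3 of 4 WT libraries at 0).

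Around the Tie receptors, 4 of 11 measured genes (36.4%) were called higher in CPM, a share near the 32.0% of all genes, with a relative median of 0.14. The count was 0 without KO replicate 3 or WT replicate 1 and 1 without KO replicate 5 or WT replicate 3. It was 7 without WT replicate 4 (50.1% of all genes). Pik3ca, the catalytic PI3 kinase subunit, Akt1, the kinase below it, and the phosphatase gene Ptpn11 had CPM log2 fold changes of 1.62, 1.28 and 1.28, and relative ones of 0.65, 0.30 and 0.30. The context ligand Angpt2 was at 15.3 CPM in KO and 5.13 CPM in WT, and its CPM fold change of 1.48 missed the threshold (limma adjusted p = 0.0554, named after its values were seen). Angpt1 was not analysed here.

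Of 16 small GTPase and cerebral cavernous malformation (CCM) genes that stabilise junctions, 10 were called higher in CPM, where 32.0% of all genes were, with a relative median of 0.24. That count was 1 without WT replicate 1, 2 without KO replicate 3, 3 without WT replicate 3, 4 without KO replicate 5 and 5 without KO replicate 4. The first by p were the Rap activator gene Rapgef2, the GTPase gene Rac1 and Rapgef3, which encodes the cAMP sensor EPAC1, with CPM fold changes of 1.53, 1.62 and 1.46. Of 13 kinases, phosphatases and proteases acting on junctions, 8 were called higher with a relative median of 0.39. Without KO replicate 3 or WT replicate 1 there were 5, and without KO replicate 5 or WT replicate 3 there were 4. The receptor phosphatase gene Ptprk had the largest CPM fold change of this list, 2.65, at 41.2 ± 12.5 CPM in KO (SD, n = 5) and 6.57 ± 4.68 CPM in WT (SD, n = 4), with a relative log2 fold change of 1.67 (limma adjusted p = 0.196). Ptprm and the sheddase gene Adam10 had CPM fold changes of 1.66 and 1.56.

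Of 11 measured surface glycoproteins 7 were called higher in CPM, where 32.0% of all genes were, with a relative median of 0.34. There were 4 without KO replicate 3, 3 without KO replicate 5, WT replicate 1 or WT replicate 3, and 11 without WT replicate 4. In that last setting 50.1% of all genes were called higher. Podxl, the sialomucin podocalyxin, was at 207 ± 112 CPM in KO and 53.5 ± 28.4 CPM in WT, with a relative log2 fold change of 0.86. The tetraspanin gene Cd151 and Cd99l2, which takes part in leukocyte passage, had relative changes of 0.95 and 1.26. Of 5 gap junction genes, Gja1 and Gjc1, both connexin genes, were called higher in CPM with log2 fold changes of 1.28 and 1.54. Neither was called without KO replicate 3, KO replicate 4, KO replicate 5 or WT replicate 2, and 1 gene of the list was without KO replicate 1 or WT replicate 1.

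Markers of other cells were measured too, and the lists differed in how far they moved between groups. Their part in the members' values was not tested. All 8 measured of 10 skeletal muscle genes were called higher in CPM (relative median 2.16), and they summed to 426 to 7968 CPM in KO and 80.4 to 258 CPM in WT, led by Myh4 and Ttn. The 16 adipocyte genes summed to 10782 to 22682 CPM in KO and 4874 to 8515 CPM in WT, with 5 of 16 (31.2%) called higher in CPM, a share near the 32.0% of all genes, and a relative median of −0.31. They were led by Fabp4, which capillary endothelium also expresses, and Pck1. Fabp4 made up the largest part of the sums, at means of 11778 CPM in KO and 4272 CPM in WT. Pck1 was at 803 CPM in KO and 761 CPM in WT, and 6 of the 16 genes had a relative fold change above 0. The 8 measured of 10 fibroblast genes, led by Col3a1 and Col1a1, had 0 calls and a relative median of −0.78, with sums of 1960 to 13231 CPM in KO and 2859 to 9364 CPM in WT.

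The 10 measured of 13 macrophage and leukocyte genes, led by C1qa and Cd74, had 0 calls and a relative median of −0.33, with sums of 528 to 1420 CPM in KO and 288 to 1178 CPM in WT. Of 7 measured of 11 mural genes, led by Myh11 and Acta2, 3 (42.9%) were called higher in CPM, where 32.0% of all genes were. Their relative median was 0.17, with sums of 298 to 574 CPM in KO and 116 to 242 CPM in WT. Lymphatic genes (3 of 7 measured, led by Flt4 and Lyve1) summed to 35.8 to 141 CPM in KO and 16.7 to 55.1 CPM in WT. Platelet genes (3 of 6 measured, led by Pf4 and Itgb3) summed to 66.8 to 275 CPM in KO and 59.4 to 135 CPM in WT. In each of these last 2 lists 1 gene (33.3%) was called higher in CPM, a share near the 32.0% of all genes. The relative medians were 0.32 and −0.41. A library at 0 occurred for 1 lymphatic and 2 platelet genes, and for no measured gene of the muscle, adipocyte, fibroblast, macrophage or mural lists. None of 11 epithelial and mesothelial genes was found by symbol among the 11802 listed genes.

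**Figure D5:**
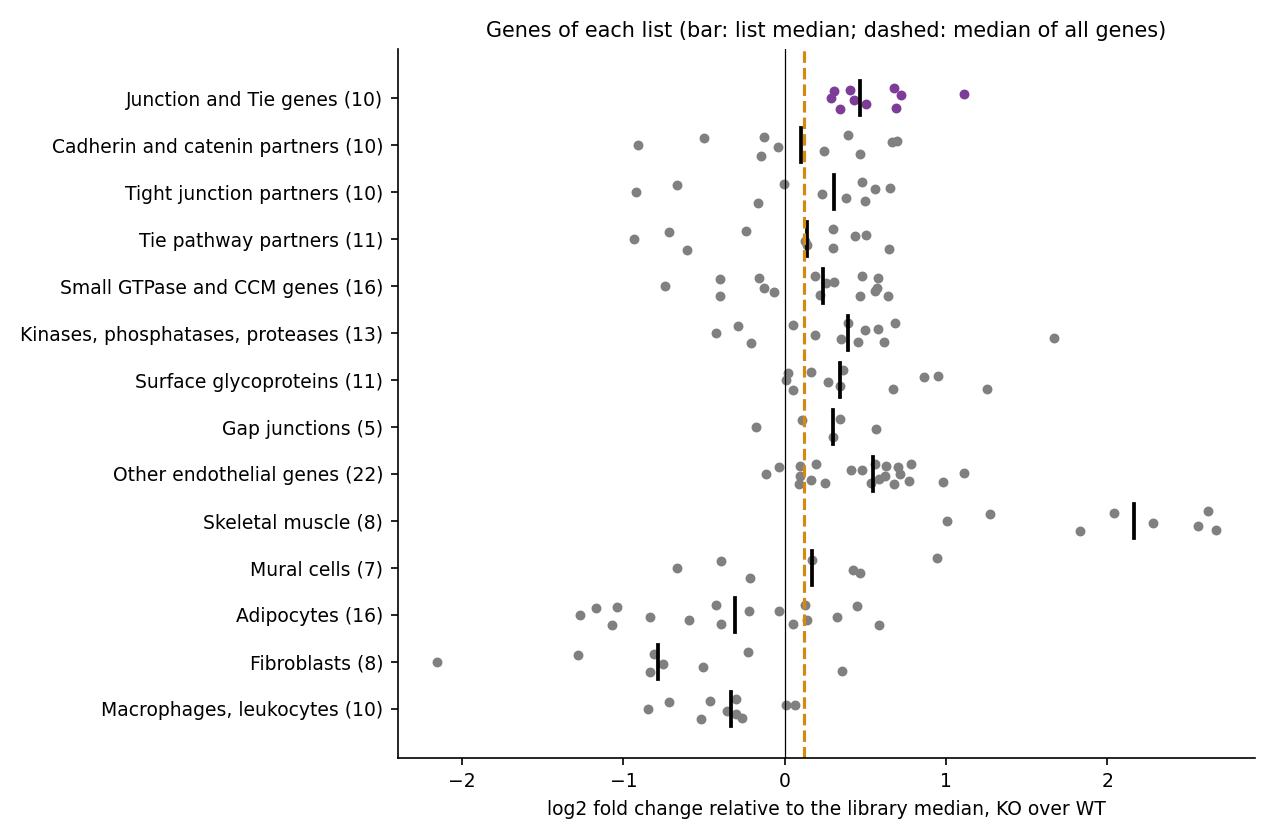
Log2 fold change relative to the library median, KO over WT, for each gene of the lists (number of measured genes in brackets; bar, list median; dashed line, median of all genes at 0.12). The 10 junction and Tie genes lie between 0.29 and 1.11 around a median of 0.47, the other endothelial genes have a median of 0.55, and skeletal muscle genes lie farthest right.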

How the data were processed

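The authors deposited CPM for 11802 genes in 9 libraries, per the labels' description field. Tools listed in the submitters' processing notes, without roles, were HISAT2 2.1.0, Trimmomatic 0.39, FastQC 0.11.9, R 4.0.2 and edgeR 3.32.0, with mm10 and GRCm38 as builds. How reads were counted, on which annotation and with which strand setting is not given in the sources used here. Symbols, coordinates and exon lengths (union of exons) came from GENCODE M21, which gave a symbol to 11787 genes. No listed gene shared exon bases with a member. Every column's values were multiples of 1 step, from which whole reads were recovered (at least 99.99% of nonzero values whole within 0.1 read).

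Groups were compared on log2(CPM + 1) over all genes with limma 3.58.1 (trended variance, R 4.3.3), two-sided, called at a Benjamini-Hochberg adjusted p under 0.05. Fold changes on this scale understate those of low genes. A minimum mean of 1 CPM removed 0 genes. EdgeR 4.0.16 and DESeq2 1.42.0 were run on the recovered reads, and the tests were checked on simulated data. Those simulated data held no shift shared by most genes, unlike the deposited CPM. The members and lists were chosen with earlier results of these data known. Named besides the members were Mfn2, up to 3 called genes with the smallest p in each pathway list, and the 2 most abundant genes of each list for another cell type. Ctnnd1, Jam3 and Angpt2 lie outside this rule and were named after their values were seen.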

Additional observations from a re-analysis of the deposited data

How the results depend on the processing

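The count of 10 members called higher in CPM stayed at 10 with a pseudocount of 0.5 or 5 (31.1% of all genes in each). It also did so without a filter (32.0%), with a minimum mean of 5 CPM (33.0%) and with array weights (46.4%). Without WT replicate 4 and KO replicate 5 together it was 10 too (43.2%). It was 6 in limma without trend (24.6% of all genes). It was 0 with quantile normalization, with CPM recomputed without mt-Rnr1 and mt-Rnr2, with centring on endothelial genes, in edgeR and in DESeq2. Each of these 5 scales the libraries differently, and the share of all genes called higher ran from 0% to 0.357%. Over the settings that each left out 1 library it ran from 3 to 10, while the share of all genes ran from 9.27% to 50.1%. The count of 40 pathway list genes was 22 without trend and 0 in those same 5 settings. With 1 library left out it ran from 14 without WT replicate 1 (9.27% of all genes) to 57 without WT replicate 4 (50.1%). Same-numbered libraries showed little shared deviation (correlations from −0.040 to 0.039). Among replicates 1 to 4, only WT replicate 1 and KO replicate 4 correlated best with their own number. These correlations were not tested, so whether the numbers pair libraries is not known. With a replicate block 8 members and 20 pathway list genes were called higher in CPM (16.4% of all genes). Relative to the library median the member and pathway counts were 0 in every setting. Of the members, 5 changed sign when centred on endothelial genes: Cdh5 (−0.12), Cldn5 (−0.18), Esam (−0.16), Tjp1 (−0.04) and Tie1 (−0.064). The Ptprb to Tek log2 ratio was 0.0035 with a pseudocount of 5 and ran from −0.13 to 0.10 with 1 library left out. In those settings Tie1 to Tek ran from −0.44 to −0.18, Cldn5 to Cdh5 from −0.23 to 0.11 and Tjp1 to Cdh5 from 0.013 to 0.15. Of 48 groups of 4 or 5 member values or ratios, 0 held a library far from the others by Dixon's criterion. Emcn and Jam2 are the members that depth limits most, with 8 to 24 and 17 to 68 reads in WT.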
